A study of Mus musculus with 3 samples.

Results

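The mitochondrial genome of the mouse carries 37 genes in the GENCODE M21 annotation, and all of them were followed here in RNA from chromatin. They were chosen by position alone, as every annotated gene of chromosome M (names starting mt-), and make up 37 of 55536 annotated genes. Of the 37, 13 encode proteins (called messages below), 2 encode ribosomal RNA (rRNA) and 22 encode transfer RNA (tRNA). The RNA came from the chromatin fraction of bone-marrow-derived macrophages of strain C57BL/6J, primary cells grown from marrow, and was depleted of ribosomal RNA before sequencing. All 3 libraries (replicates 1, 2 and 3) had the same treatment. The cells received Lipid A, the membrane anchor of lipopolysaccharide and a ligand of TLR4, at 100 ng/ml for 12 h, spent 12 h without it, and received 100 ng/ml again for 25 min. The labels list 1 donor identifier for the 3 libraries and do not say whether the cultures were separate, so the spread given is that between these libraries. No other condition, cell fraction or whole-cell RNA was analysed here, so no level below is a change with treatment or an enrichment over another fraction.

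Mitochondrial DNA is transcribed inside the mitochondrion by its own polymerase, from both strands, into long precursors. The tRNA genes lie between most of the other genes, and cutting out the tRNAs frees the messages and rRNAs. The messages encode core subunits of the respiratory chain and of ATP synthase, while the other subunits of these complexes, and all proteins of mitochondrial transcription, come from nuclear genes. Stretches of mitochondrial DNA have also been inserted into nuclear chromosomes during evolution, and reads from such a nuclear copy can be identical to reads from the mitochondrial gene.

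Each library was quantified in 2 ways by the authors: in a gene table of expected counts and TPM (abundance per length, with an equal sum for each library), called the first quantification, and in a transcript table of estimated counts and TPM, called the second and summed here per gene. Annotated genes held 13502401, 17848798 and 17824176 expected counts in replicates 1, 2 and 3, and 20661903, 32013772 and 30098148 estimated counts in the second quantification. Replicates 1, 2 and 3 started from 1 µg, 250 ng and 500 ng of RNA. The ribosomal RNA locus on chromosome 17 held 11.1%, 31.8% and 24.8% of expected counts in the same order. All 10 macrophage markers were detected, with summed TPM of 1000, 1030 and 1110. Among markers of other cell types Alas2, a gene of red cell heme synthesis, was detected, and Elane, Ly6g, Cd3e, Hbb-bt, Acta1 and Myh7 were at 0 in every library. Errors are SDs over the 3 libraries (n = 3), and positions are those of GRCm38 (mm10).

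The sequences decide how far the deposited numbers can be read. A run of 7 annotated pseudogenes on chromosome 1, minus strand (chr1:24611535-24616197), repeats the mitochondrial genome from the 3′ part of mt-Co1 to the 5′ part of mt-Nd4. Gm28661 matched mt-Co2 over 681 bases at 100% identity, Gm10925 matched mt-Atp6 over 678 bases at 100%, Gm28437 matched mt-Co3 over 783 bases at 100%, and Gm10222 matched mt-Nd4l over 294 bases at 100%. Gm28439 matched 876 of the 1378 bases of mt-Nd4 at 100%. Gm29216 matched 483 of the 1545 bases of mt-Co1 with 1 substitution (A1066T, counted from 1 at the 5′ end of mt-Co1), and Gm28438 matched 345 bases of mt-Nd3 with 1 substitution (T3C, counted from the 5′ end of mt-Nd3). The 3′ ends of the cytochrome oxidase and ATP synthase pairs are shown because the capitals, the bases that the copy's annotation lacks, are the whole annotated difference within each of these pairs (mt-Co2 at chrM:7637-7696, Gm28661 at chr1:24614885-24614941, mt-Atp6 at chrM:8548-8607, Gm10925 at chr1:24613974-24614030, mt-Co3 at chrM:9331-9390, Gm28437 at chr1:24613189-24613247).
mt-Co2: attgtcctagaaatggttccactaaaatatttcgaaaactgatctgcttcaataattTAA
Gm28661: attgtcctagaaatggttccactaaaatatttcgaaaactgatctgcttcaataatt
mt-Atp6: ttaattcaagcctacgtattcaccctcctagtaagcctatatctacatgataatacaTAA
Gm10925: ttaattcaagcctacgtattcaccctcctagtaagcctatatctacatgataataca
mt-Co3: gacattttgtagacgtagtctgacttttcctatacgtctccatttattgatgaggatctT
Gm28437: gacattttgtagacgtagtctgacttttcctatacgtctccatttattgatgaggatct

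The base that tells mt-Nd3 from its copy is in capitals in the next pair (mt-Nd3 at chrM:9459-9491, Gm28438 at chr1:24613087-24613119). It is the third base of the gene, and the copy's annotation also ends earlier (345 bases against 348), so a read from between these ends carries no difference.
mt-Nd3: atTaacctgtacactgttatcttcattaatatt
Gm28438: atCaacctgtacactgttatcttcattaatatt

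For mt-Co1 the differing base sits where the copy begins (mt-Co1 at chrM:6381-6423, Gm29216 at chr1:24616155-24616197), and the first bases of the copy, outside the aligned stretch, differ as well.
mt-Co1: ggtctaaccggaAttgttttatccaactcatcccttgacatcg
Gm29216: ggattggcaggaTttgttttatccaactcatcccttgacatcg

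Counted over every window of 50 bases, 100% of mt-Co2, 99.9% of mt-Co3, 99.5% of mt-Atp6, 98.8% of mt-Nd4l and 98.0% of mt-Nd3 also occur in another annotated transcript. The shares were 62.2% for mt-Nd4 and 51.1% for mt-Co1, both long genes of which the chromosome 1 copy holds a part. The share for mt-Co1 also counts copies elsewhere: Gm13340 on chromosome 2 matched all 1545 bases of mt-Co1 at 97.6% identity. They were 8.19% for mt-Nd2, 7.61% for mt-Nd5 and 1.04% for mt-Rnr2. No window of mt-Nd1, mt-Nd6, mt-Cytb, mt-Atp8, mt-Rnr1 or any tRNA gene was shared with another annotated transcript. Nuclear sequence outside annotated transcripts was not searched. Unannotated copies of mt-Atp8 or of tRNA genes between the pseudogenes of the chromosome 1 run would therefore be missed. A search of all annotated transcripts at 90% identity over at least 100 bases found 17 copies of 11 mitochondrial genes. Outside chromosome 1, those with a count in the first quantification were Gm11512 (4, 3 and 0 counts), Gm13340 (0, 1 and 0) and Gm43743 (1, 0 and 2).

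The quantifications divided the shared reads differently. For mt-Co2, the cytochrome oxidase subunit that takes electrons from cytochrome c, the first quantification listed 0 counts in every library and gave 684, 411 and 629 counts to Gm28661. The second gave mt-Co2 161.6, 0.213 and 287.4 counts and Gm28661 586.4, 463.8 and 469.6, so the copy held 78.4%, 100% and 62.0% of the pair. For mt-Atp6, a subunit of the proton channel of ATP synthase, the first quantification listed 0 counts in every library and gave Gm10925 525, 223 and 428. The second gave mt-Atp6 577, 258 and 513 counts and the copy less than 1 count in every library, the reverse of the first. For mt-Co3, a core cytochrome oxidase subunit, the copy held 99.7%, 99.5% and 99.7% of the pair in the first quantification and 33.5%, 89.4% and 14.1% in the second. The shorter complex I genes moved within the first quantification itself. The copy of mt-Nd4l held 0%, 100% and 36.7% of the pair's counts in replicates 1, 2 and 3, and that of mt-Nd3 18.2%, 100% and 100%. A count of 0 for these genes is therefore an outcome of dividing shared reads and not a measured absence.

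**Figure D1:**
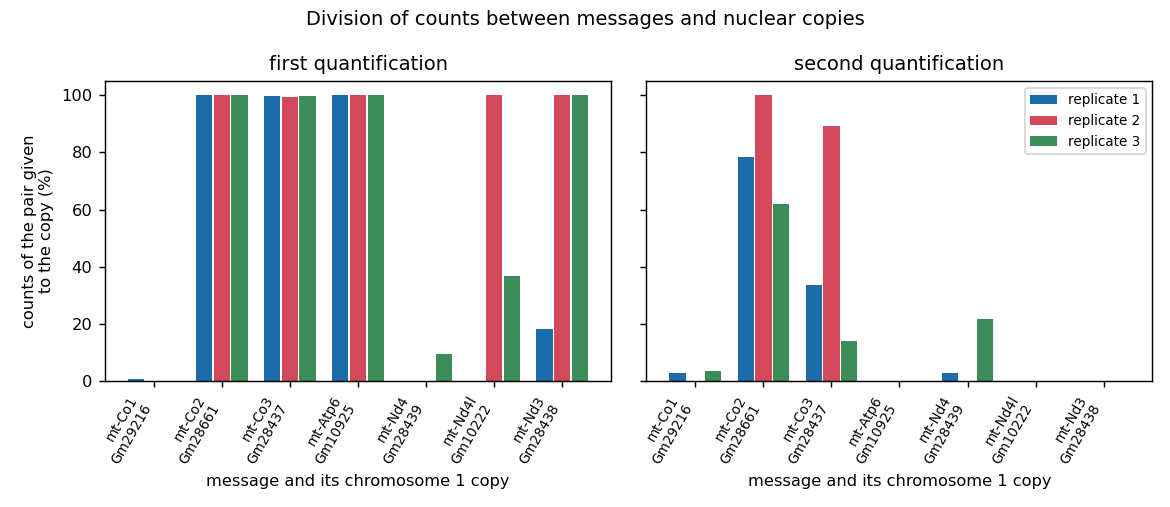
Percent of each pair's counts that was given to the chromosome 1 copy (vertical axis, from 0 to 100%), for the 7 pairs along the horizontal axis, in the first (left) and second (right) quantification, with 1 bar per library. For mt-Atp6 the bars stand at 100% on the left and at about 0% on the right.

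The gene tables carry their own measure of this uncertainty. The posterior mean count of mt-Co2, an average over plausible divisions of the reads, was 121, 147.8 and 205.1 in replicates 1, 2 and 3, with posterior SDs of 111.7, 123.7 and 137. For mt-Atp6 it was 197.7, 100.6 and 97.3, with posterior SDs of 139.7, 60.3 and 102.8. The posterior SD was 0 for mt-Rnr1, mt-Rnr2, mt-Nd1, mt-Nd5, mt-Nd6, mt-Cytb and mt-Atp8. The sum of a message and its copy hardly depended on the division: the second quantification held 1.14 ± 0.0561 times the counts of the first for mt-Co2 with Gm28661 and 1.15 ± 0.05 times for mt-Atp6 with Gm10925. The ratio was 1.14 ± 0.0802 for mt-Nd1, which has no copy in that run, and 1.52 ± 0.117 for mt-Nd4l with Gm10222, the highest of the 13. Over all annotated genes the second quantification held 1.53, 1.79 and 1.69 times the counts of the first. Levels below are therefore given for each message with its chromosome 1 copy, where annotated. How much of a sum is nuclear RNA cannot be told apart from the deposited values.

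Mitochondrial genes took a small part of these libraries. The 37 genes held 9716, 4328 and 8545 expected counts, which is 0.072%, 0.0243% and 0.0479% of annotated counts in replicates 1, 2 and 3 (0.048% ± 0.0239). Exact 95% binomial intervals, which cover counting error alone, were 0.0705% to 0.0734%, 0.0235% to 0.025% and 0.0469% to 0.049%, so the 3 libraries did not overlap. With the chromosome 1 copies the share was 0.0862%, 0.0307% and 0.0585%. The second quantification gave 0.0586%, 0.0173% and 0.0386% without the copies, in the same order of libraries. In bulk RNA, fewer mitochondria carried into the fraction and less RNA in each cannot be told apart.

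By length, the cytochrome oxidase messages stood highest. Densities were computed as counts per kilobase of annotated length and per 1000000 annotated counts, message plus copy. The density of mt-Co1, the catalytic subunit of cytochrome oxidase, was 270, 107 and 179 in replicates 1, 2 and 3 (185 ± 82). It was above mt-Co2 in every library, by 1.78 ± 0.10 on the log2 scale. Densities of mt-Co2 were 74.1, 33.7 and 51.6 (53.1 ± 20.2), and those of mt-Co3 were 63.1, 32.7 and 50.2 (48.7 ± 15.3). Their difference of 0.10 ± 0.11 (log2) was no larger than its spread, with mt-Co2 higher in all 3 libraries. Together the 3 cytochrome oxidase messages held 66.1% ± 4.11 of all message counts.

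The ATP synthase messages came next in the case of mt-Atp6, with densities of 57.1, 18.3 and 35.3 (36.9 ± 19.4). The difference between mt-Co3 and mt-Atp6 was 0.50 ± 0.34 (log2), with mt-Co3 higher in 3 of 3 libraries. mt-Atp8, the other ATP synthase subunit, whose gene runs into mt-Atp6, had 84, 22 and 55 counts and densities of 30.5, 6.04 and 15.1. By TPM its rank among the 13 was 2 (145 ± 69.4) and by density 10. The first quantification credited its 204 bases with an effective length, the number of possible fragment starts, of 29.39, 18.0 and 21.83 bases, and the second with 54.32, 56.92 and 50.29 bases. Its TPM in the second quantification was 59.7 ± 46.1. The genes share 43 bases, in capitals below (mt-Atp8 at chrM:7907-7969, mt-Atp6 at chrM:7927-7989), within which a read belongs to either.
mt-Atp8: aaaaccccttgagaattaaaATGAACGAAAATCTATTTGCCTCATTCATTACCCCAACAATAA
mt-Atp6: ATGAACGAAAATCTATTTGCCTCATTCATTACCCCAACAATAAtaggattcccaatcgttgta

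The 7 messages of complex I, the entry point for electrons from NADH, held 24.3% ± 3.18 of message counts. mt-Nd6 led them, with densities of 46.7, 10.1 and 35.6 (30.8 ± 18.7). mt-Nd5 followed at 36.7, 13.1 and 28.8, mt-Nd1 at 36.0, 11.0 and 28, and mt-Nd4 at 30.6, 10.1 and 25.0. These membrane subunits lay close together: mt-Nd6 differed from mt-Nd5 by 0.09 ± 0.40 and mt-Nd5 from mt-Nd1 by 0.11 ± 0.13 (log2), neither beyond its spread. mt-Nd6 was above mt-Nd5 in 2 of 3 libraries, and mt-Nd5 above mt-Nd1 in 3 of 3. mt-Cytb, the mitochondrial subunit of complex III, stood among them at 32.8, 10.3 and 26.4. It was below mt-Nd1 by 0.10 ± 0.03 and above mt-Nd4 by 0.07 ± 0.03 (log2), small differences of 1 sign in 3 of 3 libraries. At the low end were mt-Nd4l at 15.0, 6.60 and 16.6, mt-Nd2 at 17.3, 6.48 and 14.1, and mt-Nd3 at 11.1, 3.86 and 6.61. mt-Nd3 was below mt-Nd2 by 0.83 ± 0.24 (log2) in 3 of 3 libraries, while mt-Nd4l and mt-Nd2 differed by 0.02 ± 0.22. The ranks of the 13 densities were the same in the second quantification.

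**Figure D2:**
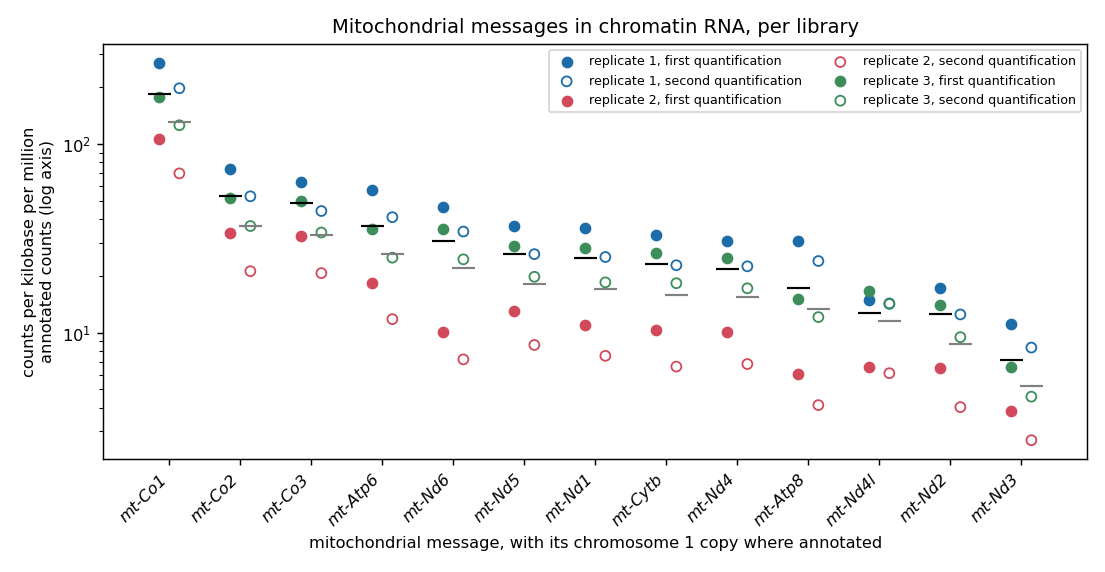
Density of each of the 13 messages, with its chromosome 1 copy where it has one, in the same unit (log axis). Points are libraries (filled, first quantification; open, second) and lines are means; mt-Co1 stands above all others in each library, and replicate 2 is the lowest library for every message.

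Of the 13 messages, 8 were detected in the first quantification without their copies, meaning 1 TPM or more in each of the 3 libraries, where 44.0% of 22028 protein-coding genes were. In the second quantification 12 were, against 53.7% of protein-coding genes. The 5 below the threshold in the first were mt-Co2, mt-Atp6, mt-Co3, mt-Nd3 and mt-Nd4l, the genes with 98.0% or more of their windows shared. All 13 passed with the copies added. Between quantifications, 5 members (mt-Ta, mt-Ts1, mt-Tp, mt-Atp6 and mt-Co3) of the 17 detected in either were higher in the second by at least 1 log2 unit in every library, with a pseudocount of 1. The same was true of 34.9% of all genes detected in either, so that count is near the background. No member was lower by that much in every library, against 0.511% of all genes. mt-Atp8 came closest, at -0.98, -2.11 and -1.42 in replicates 1, 2 and 3. The summed TPM of the 13 messages, without their copies, differed by -0.27 ± 0.24 (log2, second minus first; -0.10, -0.54 and -0.18). The exact two-sided sign-flip permutation p was 0.25, the smallest that 3 libraries allow (adjusted over 3 such tests, 0.375). With the chromosome 1 copies added, the difference was larger, at -0.55 ± 0.29 (-0.30, -0.87 and -0.47).

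The ribosomal RNAs, which outnumber messages in intact mitochondria, were scarce here, after a depletion step that removes ribosomal RNA. mt-Rnr1, the small-subunit rRNA (chrM:70-1024), had 614, 26 and 228 counts in replicates 1, 2 and 3. mt-Rnr2, the large-subunit rRNA (chrM:1094-2675), had 298, 48 and 168. Both were highest in replicate 1 and lowest in replicate 2. Per base of annotated length, rRNA stood below the messages, here without their copies, in every library. The log2 ratios were -1.10, -3.68 and -2.19 (-2.32 ± 1.29; exact sign-flip permutation p = 0.25, adjusted 0.375). With the chromosome 1 copies added to the messages, chosen after seeing the data, they were -1.39, -4.02 and -2.50 (-2.64 ± 1.32). mt-Rnr2 against mt-Rnr1 gave -1.77, 0.16 and -1.17 (-0.93 ± 0.99; exact permutation p = 0.5, adjusted 0.5), so the libraries did not share a sign. How far depletion set these ratios was not tested.

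Transfer RNA was at the edge of what these libraries hold, with a size selection of 250 to 400 given in the labels. The first quantification listed all 22 tRNA genes at 0 counts with an effective length of 0. In the second they held 19, 12 and 28 counts in all. The 3 with a count in every library were mt-Ta (3, 4 and 4 counts), mt-Ts1 (4, 4 and 8) and mt-Tp (7, 1 and 7), whose tRNAs carry alanine, serine and proline. All 3 lie on the strand opposite to most genes. On that strand 7 of 8 tRNA genes had a count, 54 counts in all, against 4 of 14 tRNA genes with 5 counts on the strand of most genes. Whether counting used strand is not given in the sources used here, and a read from the facing precursor could not then be told apart. The 3 tRNAs are shown because they are those with a count in every library (mt-Ta at chrM:5018-5086, mt-Ts1 at chrM:6870-6938, mt-Tp at chrM:15356-15422, all minus strand). The capitals mark the bases of mt-Ts1 that lie opposite the end of mt-Co1.
mt-Ta: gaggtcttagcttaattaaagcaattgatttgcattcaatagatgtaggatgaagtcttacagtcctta
mt-Ts1: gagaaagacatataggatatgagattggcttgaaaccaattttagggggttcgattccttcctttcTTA
mt-Tp: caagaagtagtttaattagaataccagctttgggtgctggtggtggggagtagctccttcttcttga

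mt-Nd6 is the message of that opposite strand, where 9 of the 37 genes lie. It had 327, 94 and 329 counts and took 9.117%, 7.13% and 10.88% of the TPM of the 13 messages (9.043% ± 1.877). With the copies added to the other messages the share was 6.282% ± 1.695. The same limit on strand holds for all of mt-Nd6 (chrM:13552-14070). The end of mt-Nd5, at chrM:13565, faces only its last bases, and a precursor running on to mt-Cytb would face the rest.

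Replicate 2 was low across the mitochondrial genome, a pattern noticed in these values and then counted. The counts used CPM (counts scaled to a common library total) after TMM scaling, which aligns the bulk of genes between libraries. Of the 37 members, 10 passed edgeR's filter on low counts: mt-Rnr1, mt-Rnr2 and 8 messages. Of those 10, 9 were lower in replicate 2 than in both other libraries by at least 1 log2 unit, where 126 of 14193 genes were (0.888%). All 10 had their lowest value in replicate 2, as 33.9% of genes did. mt-Co1 missed the first threshold, at 382.3, 176.5 and 282.6 CPM. mt-Rnr1 fell furthest, at 41.92, 1.56 and 13.05 CPM, a difference of -4.75 from replicate 1 and -3.06 from replicate 3. Over the 8 messages, the differences of replicate 2 from replicate 1 ran from -1.12 (mt-Co1) to -2.12 (mt-Atp8), with mt-Nd6 at -1.99. The pairs that share reads, counted with their copies, were lower as well, at -0.92 for mt-Co2, -0.73 for mt-Co3, -1.42 for mt-Atp6, -1.30 for mt-Nd3 and -0.96 for mt-Nd4l against replicate 1. Against replicate 3 they were -0.55, -0.55, -0.87, -0.70 and -1.26 in the same order, so none of these pairs was lower by 1 log2 unit against both.

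As sets, nuclear genes of related function that passed the same filter did not show such values. The median difference of replicate 2 from replicates 1 and 3 was -1.47 and -1.27 over the 10 members and 0.0 and 0.01 over all 14193 genes. Over 72 nuclear genes of respiratory chain and ATP synthase subunits it was 0.19 and 0.14, and 1 of them, Atp5k, a small ATP synthase subunit, was lower by 1 log2 unit against both. Over 30 genes of mitochondrial transcription, RNA processing and DNA upkeep it was 0.10 and 0.02, with none that low. Among genes of these lists that the filter left out, at low counts, Mterf2 (-2.77 and -2.06) and the complex I gene Ndufb6 (-1.62 and -1.19) were that low. Messages typical of the cytosol, 8 genes, had -0.06 and -0.12, and their summed CPM were 2130, 1763 and 1733, highest in replicate 1. The starting RNA (1 µg, 250 ng and 500 ng) had the same order as the mitochondrial share, and the chromosome 17 rRNA locus the opposite order. Their part in the result was not tested, and with 1 library at each starting amount it cannot be told apart from other differences between the libraries.

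**Figure D3:**
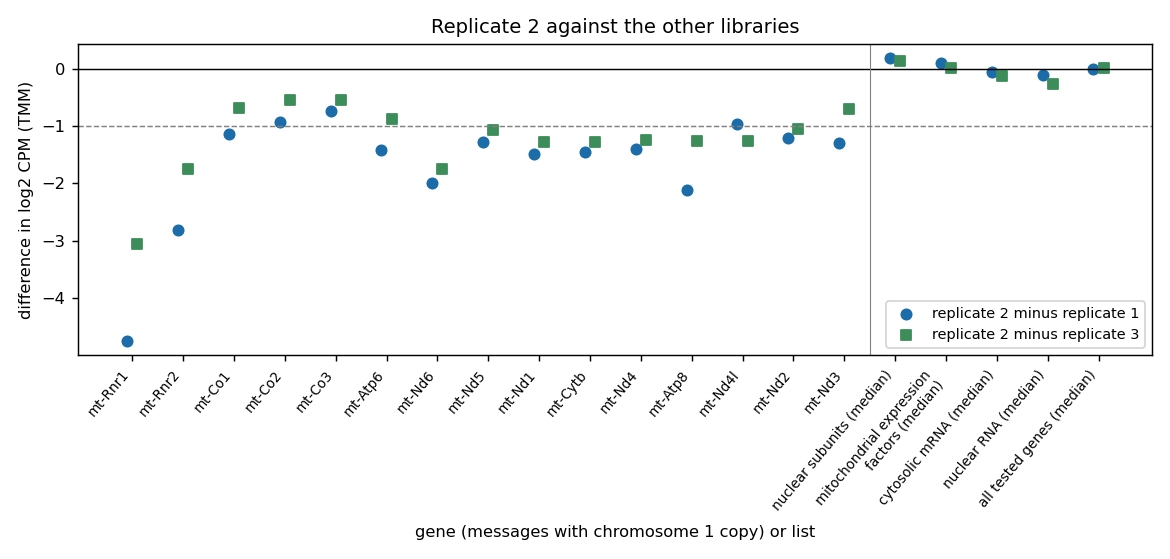
Difference in log2 CPM (TMM) of replicate 2 from replicate 1 (circles) and from replicate 3 (squares), for the 2 rRNAs and the 13 messages with their copies, and for medians of nuclear lists and of all tested genes (right of the line). The mitochondrial genes lie below 0, down to -4.75 for mt-Rnr1, and the medians on the right lie between -0.26 and 0.19.

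The spread between all 3 libraries was also larger for the members than for most genes. The biological coefficient of variation (BCV, the square root of edgeR's dispersion) had a median of 0.3034 over the 10 members and 0.2027 over all 14193 genes. It was 0.674 for mt-Rnr1, 0.465 for mt-Rnr2, 0.388 for mt-Atp8 and 0.247 for mt-Co1, the lowest of the 10. Without replicate 2 the median was 0.1871 over 11 members and 0.2074 over all genes, and without replicate 3 it was 0.2331 over the members and 0.2397 over all genes. Without replicate 1 it was 0.2447 and 0.1645, so the members' median was the higher one in all 3 libraries and without replicate 1, and the lower one without replicate 2 or replicate 3.

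The nuclear partners give a scale for the messages, in TPM, message plus copy. The order of messages and nuclear genes depended on the quantification and, in part, on the library. Values are from the first quantification unless the second is named. The 87 nuclear genes of the complexes had a median TPM of 5.59 ± 0.78, and 73 were detected; in the second quantification the median was 10.3 ± 0.6. In complex IV the 3 messages stood at 228 ± 91.6 (mt-Co1), 83.8 ± 24.1 (mt-Co2) and 72.1 ± 16.8 TPM (mt-Co3). Its highest nuclear gene, Cox7c, a small structural subunit, stood at 40.6 ± 10.1. In the second quantification Cox7c stood at 66.7 ± 13.1, below the mean of mt-Co1 (195) and above the means of mt-Co2 (63.9 ± 28.5) and mt-Co3 (53.4 ± 20.3). Cox4i1, another nuclear subunit, was also above the mean of mt-Co3 there, at 60.3 ± 7.44. In complex I the messages ran from 16.8 ± 6.45 (mt-Nd2) to 56.5 ± 30.1 TPM (mt-Nd6), and Ndufs1, an iron-sulfur subunit and the highest nuclear gene, stood at 34.6 ± 2.68. In the second quantification the order turned, with Ndufs1 at 67.5 ± 13.6 and mt-Nd6, the highest message, at 44.7 ± 28.2. mt-Cytb had 30 ± 13.5 TPM and Uqcrh, the highest nuclear gene of complex III, 23.7 ± 3.67. This order turned as well in the second, with mt-Cytb at 22.9 ± 12.5, Uqcrh at 24.1 ± 6.93 and Uqcrc1, a core subunit, highest at 28 ± 3.87. In complex V, mt-Atp8 had 145 ± 69.4, mt-Atp6 57.8 ± 25.4 and Atp5b, the catalytic subunit, 64.4 ± 19.6. In the second they had 59.7 ± 46.1, 44.8 ± 25.8 and 57.9 ± 7.05. Within the first quantification, replicate 2 alone had mt-Nd6 (22.16) below Ndufs1 (31.7) and mt-Cytb (14.73) below Uqcrh (20.6). It alone also had mt-Atp8 (75.53) and mt-Atp6 (32.86) below Atp5b (86.7). In that library mt-Nd4l with its copy (33.16) stayed above Ndufs1, and the complex IV messages stayed above Cox7c. Complex II has no mitochondrial message, and its highest gene, Sdha, had 55.3 ± 3.92. Nuclear RNA in this fraction includes unspliced RNA, whose reads in introns these exon-based TPM may leave out, so the scale holds for annotated exons.

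**Figure D4:**
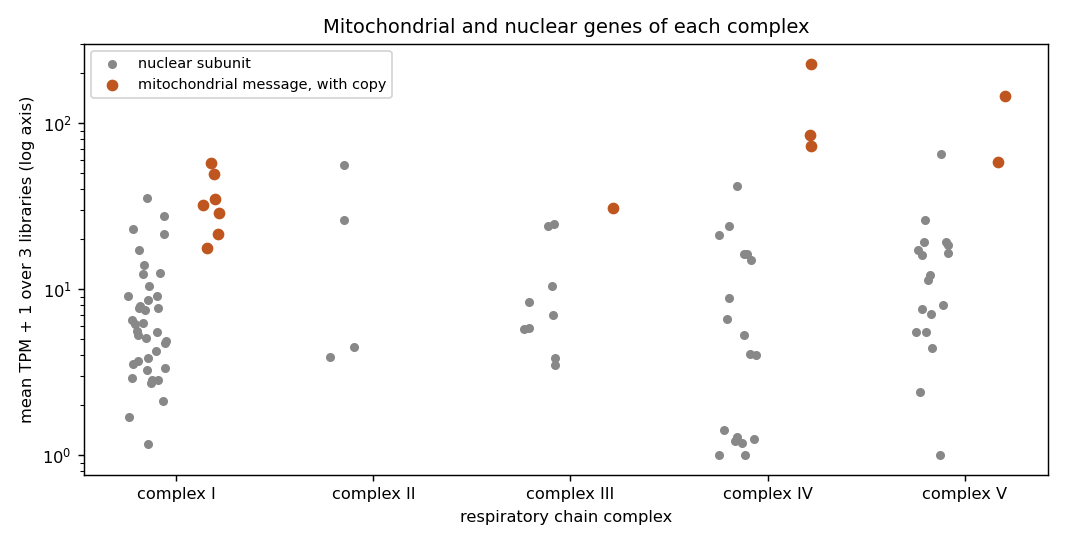
Mean TPM + 1 over 3 libraries (log axis) of nuclear subunit genes (grey) and mitochondrial messages with their copies (orange), by complex, in the first quantification. The 3 messages of complex IV, at 72.1 to 228 TPM, lie above each of its nuclear genes here, while those of complex I overlap the upper nuclear genes. In the second quantification mt-Co2 and mt-Co3 lie below Cox7c (66.7 TPM), and mt-Co3 also below Cox4i1 (60.3 TPM).

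Of 31 matched genes for mitochondrial transcription, RNA processing and DNA upkeep, 30 were detected in the first quantification, with a median TPM of 4.91 ± 1.01. In the second 29 were detected, with a median of 7.96 ± 0.831. Highest by the first quantification were Pnpt1, an RNA-degrading enzyme of mitochondria, at 40.1 ± 9.63, and Polg, the mitochondrial DNA polymerase, at 39.8 ± 6.49. Fastk stood at 33.6 ± 8.99 and Ssbp1, which binds single-stranded mitochondrial DNA, at 30 ± 3.3. In the second quantification Mterf3 was highest at 81.3 ± 21.6 (24.3 ± 1.71 in the first), with Pnpt1 at 52.0 ± 21.7, Tbrg4 at 49.5 ± 2.27 and Polg at 38.9 ± 1.2. Polrmt, the mitochondrial RNA polymerase, stood at 9.74 ± 0.471 in the first quantification and 8.2 ± 0.305 in the second. Tfam, which packages mitochondrial DNA and starts its transcription, stood at 2.64 ± 1.15 in the first and 6.63 ± 0.41 in the second. Mterf2 was below 1 TPM in 2 libraries of the first quantification (1.01, 0.09 and 0.35).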

How the data were processed

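Per the file headers, the deposited gene tables hold expected counts and TPM in columns named as RSEM names them, while the deposited transcript tables use the column names of kallisto for estimated counts and TPM. The submitters' processing notes give mm10 and GENCODE M21; for aligner, versions and strand, the setting is not given in the sources used here. Rows outside the annotation (26345 of 81881) held 1.75%, 0.396% and 0.239% of expected counts and were left out. By counting error alone, a count of 0 allows up to 3 counts, or 0.222, 0.168 and 0.168 CPM. Intervals and floors cover counting error only. This ceiling does not hold for zeros of genes that share reads with a copy, or of tRNA genes in the first quantification. Copies were found with blastn 2.17.0, among annotated transcripts only. Expected counts were rounded for edgeR 4.0.16 (R 4.3.3; filterByExpr, TMM, estimateDisp with an intercept only), which was tested on simulated data; DESeq2 1.42.0 was an alternative. Ratios were tested with an exact sign-flip test over libraries. Scripts ran in Python 3.11.15 with scipy 1.17.1, pandas 2.3.3, matplotlib 3.10.9 and numpy 2.4.6. All 13 messages, both rRNAs, tRNAs with a count in every library, copies with a count and the highest genes of each list were named. The members and lists were chosen with earlier results of these data known.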

Additional observations from a re-analysis of the deposited data

How the results depend on the processing

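No paired analysis was possible because all 3 libraries belong to 1 group. The count of messages detected was 13 of 13 with posterior mean TPM and 13 with the chromosome 1 copies added (chosen after seeing the data), and 8 to 9 when a replicate was left out. The second quantification gave 3 tRNA genes with a count in every library, where the first gave 0. The share of mt-Nd6 was 6.282% with the copies added to TPM and 5.726% by counts per base with the copies, both chosen after seeing the data. The median BCV of the members was 0.503 without shrinkage between genes (0.1364 over all genes), also chosen after seeing the data, and ran from 0.1871 to 0.2447 when a replicate was left out. Leaving out a replicate moved the mitochondrial share of counts between 0.0361% and 0.05995%, its share of TPM between 0.04862% and 0.07983%, the rRNA ratio between -2.94 and -1.65, the ratio of the rRNAs between -1.47 and -0.51, the share of mt-Nd6 between 9.006% and 9.999%, and the ratio of the quantifications between -0.36 and -0.14. The count of messages low in replicate 2, over all 13, was 8, with mt-Nd4l at 0 counts there; it was 7 with copies added, 8 against replicate 3 alone and 10 against replicate 1 alone. The members' median BCV, above that of all genes with 3 libraries, was below it without replicate 2 (0.1871 against 0.2074) and without replicate 3 (0.2331 against 0.2397). The order of messages and the highest nuclear subunits turned with the second quantification in complexes I, III and in part IV. Within the first quantification, replicate 2 reversed the order of mt-Nd6 and Ndufs1, of mt-Cytb and Uqcrh, and of both complex V messages and Atp5b. No ratio of rRNA to messages, of the rRNAs or of the quantifications changed the sign of its mean under any alternative run. Low counts limit the tRNAs, mt-Atp8 and mt-Nd3.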
